A study of Mus musculus with 12 samples.

Results

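A set of 10 genes that mark the choroid plexus epithelium was followed over all 12 arrays: *Ttr*, *Kl*, *Folr1*, *Clic6*, *Aqp1*, *Sostdc1*, *Slc4a5*, *Cldn2*, *Igf2* and *Igfbp2*. They were chosen by gene name, and every non-control probe with one of these names was taken, which gave 15 probes for 10 of the 21149 named genes on the array. RNA came from the dissected cerebellum and hippocampus of 3 WT and 3 En2-/- adult littermates, and each RNA sample was hybridised to 1 one-colour Agilent array. The En2-/- mice, called En2KO here as in the labels, carry the *En2* hd allele on both chromosomes, which lacks the homeobox of the transcription factor engrailed-2. Mice of both sexes and 3 to 5 months of age came from heterozygous matings on a mixed 129Sv and outbred background that had been crossed to C57BL/6. Both genotypes were littermates from these matings. The deletion is constitutive, so every cell of the body carried it.

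The choroid plexus is a folded epithelium that hangs into the ventricles of the brain and secretes cerebrospinal fluid. Its cells pump ions and water from the blood side to the ventricle, carry vitamins and hormones across, and release carrier proteins and growth factors into the fluid. One plexus lies against the hippocampus in the lateral ventricle and another against the cerebellum in the fourth ventricle, so dissected tissue can carry more or less of it. In RNA from whole tissue, fewer cells of a type and less RNA per cell cannot be told apart. Whether plexus tissue was removed at dissection is not given in the sources used here.

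The arrays were alike in general quality. Between 62.27% and 73.05% of the 43379 spots were well above background on each array, and no spot of a choroid plexus gene was saturated. Each of 3 slides held 1 array of each of the 4 groups, and the replicate number of a sample is its slide. All 7 cerebellar and all 7 hippocampal marker genes that were looked up had the higher mean in their own region. The *En2* probe did not separate the genotypes. Its level was 13.80 to 14.61 in WT and 14.08 to 14.81 in En2KO cerebellum, with an adjusted p of 0.837 in limma, and 7.43 to 7.99 in WT and 7.04 to 8.14 in En2KO hippocampus. Per the study's text, that probe lies in the 3' untranslated region, which the deletion leaves in place, so these levels do not check the labels.

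The probe with the highest mean stood for a gene, and levels are log2 intensities after quantile normalisation over the 12 arrays. All 10 of these probes were well above background on all 12 arrays. They lie, in the mm9 positions of the array files, at chr6:55298480-55298539 for *Aqp1*, chrX:136345244-136345303 for *Cldn2*, chr5:151795712-151795771 for *Kl* and chr6:83253664-83253723 for *Slc4a5*. The level of one probe cannot be set against that of another, so each gene was compared with itself across arrays.

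Promoter windows from RefSeq (GRCm38.p6) were used for 6 of the 10 genes, with 10 windows. Each ran from 250 bases before to 50 bases after the start of transcription. No window of *Ttr*, *Folr1*, *Clic6* or *Sostdc1* was used. The windows of *Kl*, a co-receptor for fibroblast growth factor 23, *Aqp1*, a water channel of the ventricular membrane, *Slc4a5*, a sodium bicarbonate cotransporter, and *Cldn2*, a tight junction protein that forms a paracellular pore, are shown because these genes have a single window each and their levels moved together in the hippocampus. Capitals mark matches, on either strand, to a TATA box spelled TATAAA, to a GC box spelled GGGCGG, to the core bound by the plexus factor OTX2, spelled TAATCC, and to a site of TFAP2 type, spelled GCCNNNGGC. No marked matches overlap. The windows are chr5:150952357-150952656, chr6:55336049-55336348, chr6:83237125-83237424 and chrX:139800558-139800857, in this order and all on the plus strand.
Kl: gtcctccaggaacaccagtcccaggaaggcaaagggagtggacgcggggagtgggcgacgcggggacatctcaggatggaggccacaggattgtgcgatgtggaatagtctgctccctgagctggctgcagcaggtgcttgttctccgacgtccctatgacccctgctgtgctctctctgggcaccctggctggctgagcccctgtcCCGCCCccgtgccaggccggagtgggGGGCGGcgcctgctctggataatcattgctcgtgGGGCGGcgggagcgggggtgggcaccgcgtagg
Aqp1: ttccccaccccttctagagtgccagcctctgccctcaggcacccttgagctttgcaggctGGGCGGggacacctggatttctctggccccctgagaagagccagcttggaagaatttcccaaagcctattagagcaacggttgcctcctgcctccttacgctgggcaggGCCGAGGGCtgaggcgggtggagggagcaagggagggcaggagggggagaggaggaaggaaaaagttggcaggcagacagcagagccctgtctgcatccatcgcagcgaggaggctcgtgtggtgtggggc
Slc4a5: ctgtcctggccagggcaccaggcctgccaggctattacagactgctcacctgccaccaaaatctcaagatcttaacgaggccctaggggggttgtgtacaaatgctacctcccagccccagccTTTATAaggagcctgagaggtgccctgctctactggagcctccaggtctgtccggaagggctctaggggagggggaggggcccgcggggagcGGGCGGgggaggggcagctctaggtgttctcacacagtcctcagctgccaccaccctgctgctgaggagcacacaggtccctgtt
Cldn2: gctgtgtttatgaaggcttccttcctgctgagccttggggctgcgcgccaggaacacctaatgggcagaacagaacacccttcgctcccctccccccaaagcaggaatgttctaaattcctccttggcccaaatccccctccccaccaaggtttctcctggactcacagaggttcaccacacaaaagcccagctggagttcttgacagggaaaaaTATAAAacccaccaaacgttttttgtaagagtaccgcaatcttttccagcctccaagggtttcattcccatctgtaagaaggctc
The windows did not share one layout. *Kl* held 3 matches to the GC box and none to the TATA box. *Aqp1* held 1 GC box and 1 site of TFAP2 type. *Slc4a5* held a TATA box on the opposite strand and 1 GC box, and *Cldn2* held a TATA box that began 35 bases before the start. The OTX2 core was in none of these 4 windows and in 1 of the 4 windows of *Igf2*. Of 32851 such RefSeq windows, 35.7% held the GC box, 16.6% the TFAP2 type, 13.6% the TATA box and 7.06% the OTX2 core. The GC content was 67.3% for *Kl*, 62.7% for *Aqp1* and *Slc4a5* and 51.3% for *Cldn2*, against a median of 52.7%.

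In the hippocampus the choroid plexus genes varied far more between En2KO mice than between genotypes. The array of En2KO replicate 1 was the highest of the 6 hippocampal arrays, and that of En2KO replicate 2 the lowest, for 10 of the 10 genes. The same order of those arrays was found for 3.73% of the 14799 genes with values on all 6 arrays. Both arrays are from the same genotype and 1 lies on each side of the WT arrays, so no gene separated the genotypes.

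*Ttr*, which encodes transthyretin, the thyroxine and retinol carrier of the cerebrospinal fluid, had levels of 13.52, 14.67 and 14.57 in WT hippocampus and of 15.11, 10.25 and 13.62 in En2KO hippocampus, in the order of replicates 1 to 3. The highest array was 29.0-fold above the lowest. Replicates 1 and 2 of En2KO thus lay on either side of all 3 WT arrays, and replicate 3 lay inside their range. The spread of *Ttr* among the En2KO arrays, 2.49 (SD, n = 3), was the 23rd largest of 14460 genes, against 0.63 among the WT arrays.

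*Aqp1* had the widest range. Its hippocampal levels were 9.40, 10.12 and 11.65 in WT and 12.30, 6.65 and 9.97 in En2KO, 50.3-fold from the lowest array to the highest. *Cldn2* stood at 8.21, 8.76 and 9.27 in WT and at 9.61, 4.97 and 7.89 in En2KO. *Slc4a5* had levels of 8.17, 8.77 and 9.71 in WT and of 10.69, 5.76 and 8.76 in En2KO. These transporters and junction proteins of the epithelium shared the order of the En2KO arrays with *Ttr*.

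*Folr1*, the folate receptor that loads folate into the cerebrospinal fluid, stood at 11.70, 12.09 and 12.87 in WT and at 13.95, 9.16 and 11.98 in En2KO hippocampus. *Clic6*, a chloride channel family member, stood at 11.93, 13.18 and 14.03 in WT and at 14.85, 10.61 and 12.36 in En2KO. *Kl* ranged from 11.25 to 12.16 in WT and was 12.45, 9.63 and 11.05 in En2KO. For each of them the WT range lay within that of the En2KO arrays.

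*Kl* and the remaining growth factor and signalling genes had the narrowest ranges. *Sostdc1*, an antagonist of bone morphogenetic protein and Wnt signals, was 11.47, 12.03 and 11.63 in WT and 13.29, 9.82 and 11.76 in En2KO hippocampus. *Igfbp2*, which binds insulin-like growth factors, was 12.33, 12.32 and 13.03 in WT and 14.11, 10.98 and 12.57 in En2KO. *Igf2*, insulin-like growth factor 2, was 12.95, 13.39 and 13.22 in WT and 14.52, 12.32 and 13.44 in En2KO. *Igf2* had the smallest range of the 10, 4.60-fold, and is also expressed by the meninges. Of the 10 genes, 9 were among the 1% of genes with the largest spread over the En2KO hippocampal arrays and 2 were so over the WT arrays, and over the cerebellar arrays of either genotype the number was 0.

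**Figure D1:**
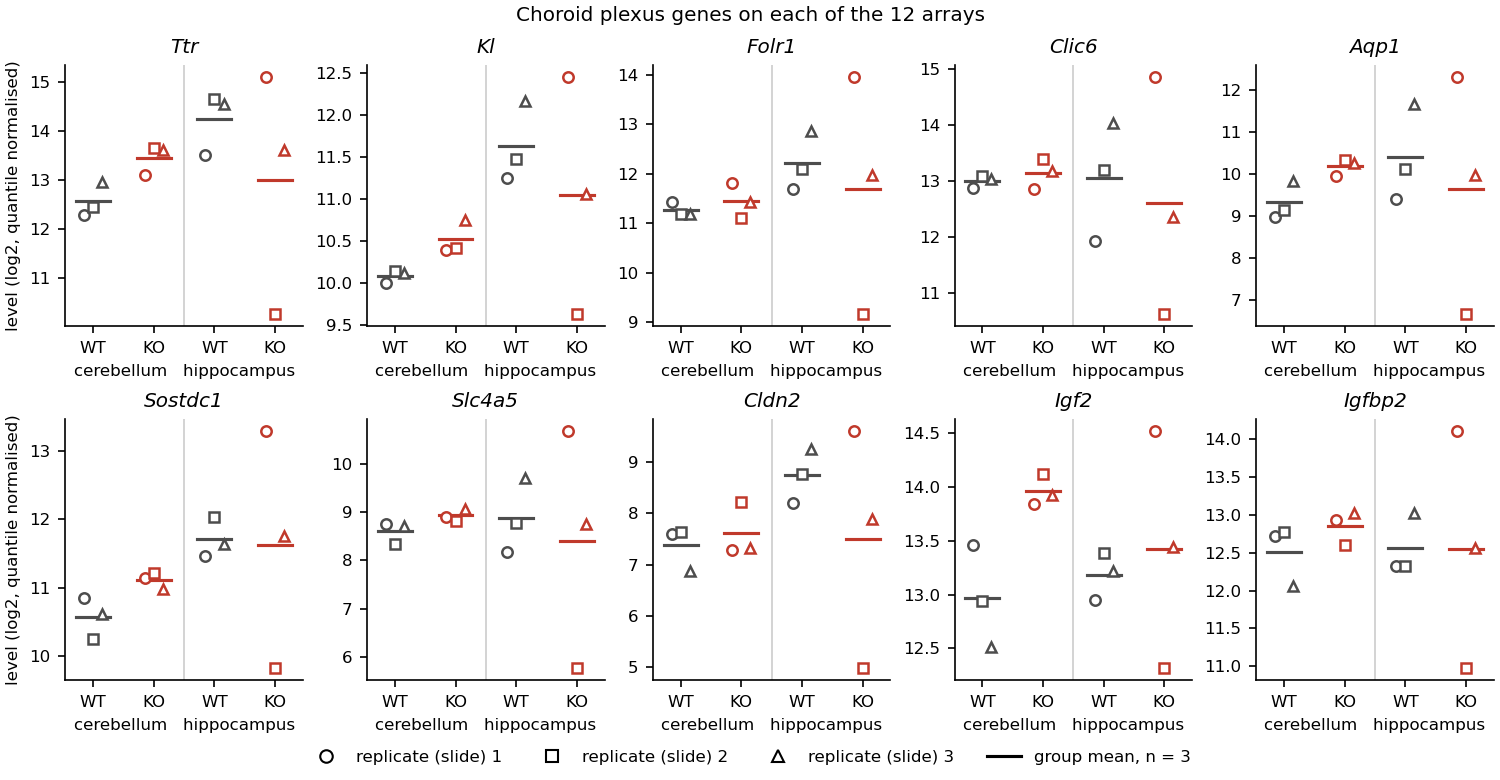
Level of each of the 10 genes (log2, quantile normalised) on every array, by region and genotype; symbols give the replicate, which is also the slide, and bars the mean of 3 arrays. In the hippocampus the En2KO arrays of replicates 1 and 2 are the highest and the lowest point of every panel among the 6 hippocampal arrays, while in the cerebellum the En2KO means lie above the WT means.

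Compared slide by slide, the En2KO hippocampus was above its WT partner for 10 of 10 genes on slide 1, for 0 on slide 2 and for 2, *Sostdc1* and *Igf2*, on slide 3. Of all 14799 genes with values on the 6 arrays, 7974, 7316 and 8533 were above on slides 1, 2 and 3. The mean deviation of the 10 genes from the WT mean was 1.43 on the En2KO array of replicate 1, -2.65 on that of replicate 2 and -0.32 on that of replicate 3. Among the WT arrays it ran from -0.57 to 0.55. Across all genes the array of replicate 1 stood slightly above the range of the non-extreme arrays, and that of replicate 2 lay within it. On the array of replicate 1, 5.53% of genes lay more than 1 log2 unit from the median of the other 5 arrays, on that of replicate 2 3.72%, and on the remaining 4 hippocampal arrays 3.09% to 5.07%. All 10 choroid plexus genes did so on both.

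The rank product, which ranks genes by their change over the 9 pairs of 1 En2KO and 1 WT array, called 3 of the 10 genes lower in the En2KO hippocampus and 0 higher. *Ttr* had a difference of -1.26 with an uncorrected P of 0.00221, *Cldn2* of -1.25 with a P of 0.00208 and *Aqp1* of -0.75 with a P of 0.00465, all from 100 permutations and against a limit of 0.005. Over all 14971 genes tested, 2.36% were called lower and 1.84% higher. In limma, which weighs each difference against the spread of its arrays, 0 of the 10 genes passed an adjusted p of 0.05, and 0 had an unadjusted p below it, where 1.34% and 19.5% of all genes did. With the slide as a block an unadjusted p below 0.05 was reached by 0 of the 10, where 16.2% of all genes reached it. The SE was 1.07 for *Ttr*, 1.00 for *Cldn2* and 1.27 for *Aqp1*, so these differences were of the size of their SE, and the adjusted p was 0.540, 0.515 and 0.770.

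These rank product calls rested on single arrays. Without En2KO replicate 2 the number called was 0, and the median difference of the 10 genes turned from -0.50 to 0.74, with all 10 of them at or above 0. Without En2KO replicate 1 the number called was 7, all lower, and the median was -1.59. The number called was also 0 without WT replicate 2 and without WT replicate 3. The shares of all genes called with an array left out are not given here, so these numbers have no share to stand beside. Across the whole group the En2KO mean was below the WT mean for 9 of 10 genes, *Igf2* being the exception at 0.24 and *Igfbp2*, at -0.01, turning to 0.13 when arrays were scaled to their 75th percentile. Of all genes 44.2% lay below, and the median over all genes was 0.05. No gene had its 3 En2KO arrays all above or all below the WT arrays, where 15.0% and 11.3% of all genes did.

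In the cerebellum each of the 10 genes had a narrower range over the 6 arrays than in the hippocampus. All 10 genes had the higher mean in En2KO mice, by 0.14 for *Clic6* to 0.99 for *Igf2*, with a median of 0.39. Over all 15603 genes tested, 46.2% had the higher mean in En2KO and the median was -0.03. The 3 En2KO arrays lay above all 3 WT arrays for 6 of the 10 genes (*Ttr*, *Kl*, *Aqp1*, *Sostdc1*, *Slc4a5* and *Igf2*), where 5.93% of the genes measured on all 6 arrays did, and below them for 0. The same 6 genes were higher in En2KO on each of the 3 slides, where 12.3% of genes were. These counts use the brightest probe of each gene. A dimmer probe of *Kl* went the other way, with a difference of -0.68 and all 3 En2KO arrays below all 3 WT arrays. Members that vary together are not independent measurements.

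*Igf2* had levels of 13.46, 12.94 and 12.51 in WT and of 13.84, 14.11 and 13.92 in En2KO cerebellum. All En2KO arrays lay above the highest WT array, and the mean was 1.98-fold that of WT, a difference of 0.99 with an SE of 0.26. *Ttr* had levels of 12.29, 12.45 and 12.95 in WT and of 13.10, 13.66 and 13.62 in En2KO, a difference of 0.89 with an SE of 0.25, or 1.86-fold. *Aqp1* stood at 8.98, 9.15 and 9.83 in WT and at 9.95, 10.33 and 10.27 in En2KO, a difference of 0.87 with an SE of 0.26, or 1.82-fold. For *Ttr* and *Aqp1* the gap between the highest WT and the lowest En2KO array was narrow beside the range within WT.

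The rank product called *Igf2* (P = 0.00231), *Ttr* (P = 0.00463) and *Aqp1* (P = 0.00541) higher in the En2KO cerebellum from 100 permutations, with a limit of 0.01. These were 3 of 10, where 2.38% of all genes were called higher. It called 0 of 10 lower, where 2.65% were. In limma 0 of the 10 passed an adjusted p of 0.05, where 0.660% of genes did. The adjusted p was 0.233 for *Igf2*, 0.274 for *Ttr* and 0.319 for *Aqp1*. An unadjusted p below 0.05 was reached by 5 of the 10 (*Ttr*, *Kl*, *Aqp1*, *Sostdc1* and *Igf2*), where 9.30% of all genes reached it. With the slide as a block it was reached by 3 (*Ttr*, *Aqp1* and *Igf2*), where 9.52% of all genes reached it. The percentage of false prediction of the rank product was 0.206 for *Igf2*, 0.303 for *Ttr* and 0.316 for *Aqp1*, above 0.05 for each. *Igf2* alone was called without WT replicate 1, WT replicate 2, En2KO replicate 2 or En2KO replicate 3, and *Ttr* and *Aqp1* were called without WT replicate 3, where *Igf2* was not.

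The other genes had smaller differences in the cerebellum. *Sostdc1* was 10.84, 10.25 and 10.62 in WT and 11.14, 11.21 and 10.99 in En2KO, a difference of 0.54 with an SE of 0.21. *Kl* was 9.997, 10.14 and 10.13 in WT and 10.40, 10.42 and 10.75 in En2KO, a difference of 0.44 with an SE of 0.19. *Slc4a5* was 8.75, 8.35 and 8.72 in WT and 8.91, 8.83 and 9.08 in En2KO, 0.33 with an SE of 0.20. For these genes the genotypes did not overlap on the brightest probe, although neither test called them. *Igfbp2* (0.34, SE 0.25), *Cldn2* (0.24, SE 0.32), *Folr1* (0.19, SE 0.23) and *Clic6* (0.14, SE 0.21) had overlapping arrays.

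**Figure D2:**
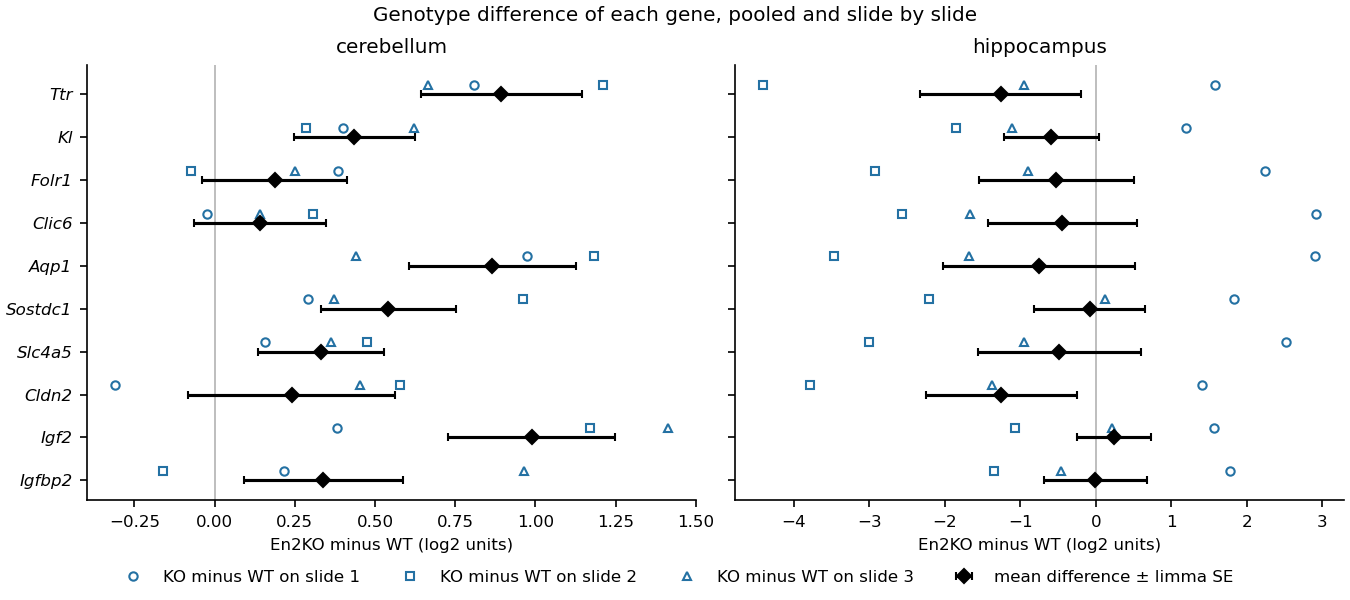
Difference between En2KO and WT (log2 units) for each of the 10 genes in the cerebellum and the hippocampus; diamonds give the mean difference with the limma SE (n = 3 arrays per genotype), open symbols the difference on each slide, and the scales of the panels differ. In the hippocampus the slide 1 values are all above 0 and the slide 2 values all below, and in the cerebellum all mean differences are above 0.

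Second probes measured 5 of the genes. For *Igf2* the second probe, at chr7:149837115-149837174 in mm9, had levels of 10.11, 10.10 and 9.79 in WT and of 10.94, 11.48 and 11.53 in En2KO cerebellum, a difference of 1.32 in the direction of the first. Tested as a feature of its own it had an adjusted p of 0.0753 in limma and a rank product P of 0.000670 by permutation. For *Kl* the probes disagreed. The dimmer one, at chr5:151789486-151789545 in mm9, was 5.09, 4.87 and 5.04 in WT and 4.28, 4.25 and 4.43 in En2KO cerebellum, also without overlap. Its difference was -0.68, where the brighter probe gave 0.44, and the mean of both was -0.12. Both probes of *Kl* had the hippocampal order, with En2KO replicate 1 at 6.70 and replicate 2 at 1.97 on the dimmer one. That last spot was not well above background. The second probes of *Folr1* and *Clic6* gave cerebellar differences of 0.01 and 0.17, and that of *Slc4a5* was well above background on 4 of 6 cerebellar and 2 of 6 hippocampal arrays only.

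Whether the genotype difference itself differed between the regions was tested with an interaction term over all 12 arrays. The estimate, cerebellar minus hippocampal difference, was above 0 for all 10 genes, from 0.35 for *Igfbp2* to 2.15 for *Ttr*. Its SE was 1.23 for *Ttr*, 1.46 for *Aqp1* and 1.18 for *Cldn2*. In limma 0 of the 10 passed an adjusted p of 0.05, where 0.116% of 14691 genes did, and 0 had an unadjusted p below it, where 11.9% did. The adjusted p was lowest for *Ttr*, 0.487. The spread of the En2KO hippocampal arrays enters the SE of each of these estimates.

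In WT mice the levels of 5 of the 10 genes (*Ttr*, *Kl*, *Folr1*, *Sostdc1* and *Cldn2*) were higher on every hippocampal than on every cerebellar array, where 19.9% of genes were. *Kl* passed the test, with a mean of 11.63 in the hippocampus and of 10.09 in the cerebellum, 2.92-fold apart, and an adjusted p of 0.0368 in limma, where 31.0% of all genes passed. *Ttr* was 3.22-fold higher in the WT hippocampus with an adjusted p of 0.162, and *Cldn2* 2.59-fold with 0.236. *Clic6*, *Igfbp2*, *Igf2* and *Slc4a5* were within 1.21-fold between the regions. The call for *Kl* was lost when any 1 of the 6 WT arrays was left out and with the deposited log2 values.

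The genes were then compared with *Ttr* over the 6 arrays of a region. In the hippocampus Pearson's r with *Ttr* ran from 0.811 for *Igf2* to 0.990 for *Cldn2*, and Spearman's rho from 0.657 for *Igfbp2* to 0.943 for *Folr1*, *Clic6*, *Aqp1*, *Sostdc1* and *Slc4a5*. In an exact permutation test over 720 orderings, adjusted over the 18 relations of both regions, r passed for 8 of the 9 genes, with an adjusted p of 0.0156 to 0.0375, and *Igf2* did not, with 0.130. The adjusted p of rho was 0.050 at the lowest. The permutation test was not run for all genes in either region, so these counts have no share to stand beside. Ordered by r with *Ttr* among 14798 other genes measured on all 6 arrays, these 8 ranked from 4 for *Cldn2* to 211 for *Igfbp2*. *Igf2* ranked 386. Among the 45 pairs of the 10 genes the median r was 0.95 and the lowest 0.80.

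The size of these correlations rested on the 2 extreme arrays. Without En2KO replicates 1 and 2, the arrays farthest from the median of *Ttr*, r with *Ttr* over the other 4 arrays ran from 0.352 for *Igfbp2* to 0.892 for *Clic6*. The lowest r among the 45 pairs was then -0.23 and the median 0.75. Without En2KO replicate 2 alone it ran from 0.706 for *Igfbp2* to 0.938 for *Clic6*. After each genotype mean was taken out it was 0.921 to 0.988, a value that still includes those 2 arrays, and the relation within WT mice alone was not tested.

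In the cerebellum the median r among the 45 pairs was 0.48 and the lowest -0.69, and with the genotype means taken out the median was -0.0072. *Aqp1* followed *Ttr* with r = 0.985 and rho = 1.000, with an adjusted p of 0.0156 for r and 0.050 for rho in the exact permutation test. *Kl* had r = 0.869 and rho = 0.886, with adjusted p of 0.0375 and 0.0667 in the same test. By r with *Ttr*, *Aqp1* ranked 4 and *Kl* 448 of 15270 genes. The other 7 genes had r of -0.023 for *Folr1* to 0.697 for *Slc4a5* and did not pass. Without the 2 arrays farthest from the median of *Ttr*, WT replicate 1 and En2KO replicate 2, r was 0.973 for *Aqp1* and 0.896 for *Kl*. With the genotype means taken out r stayed at 0.951 for *Aqp1* and was 0.483 for *Kl*, so that of *Kl* rested in part on the genotype difference. The correlation of *Igf2* with *Ttr* turned from 0.607 to -0.521 in this way, *Igf2* being highest, among the WT arrays, in the one with the lowest *Ttr*.

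**Figure D3:**
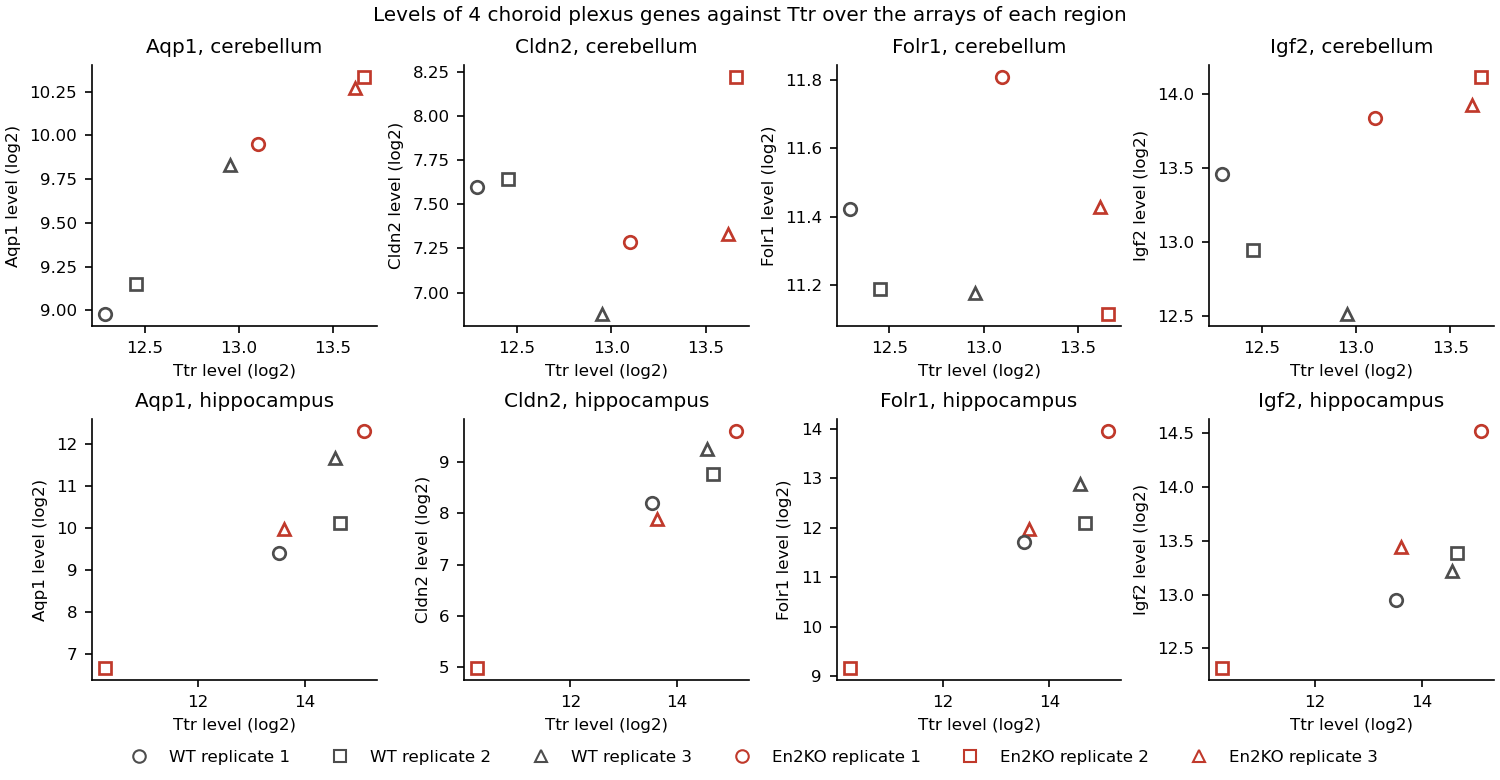
Levels (log2) of *Aqp1*, *Cldn2*, *Folr1* and *Igf2* against that of *Ttr* on the same array, in the cerebellum (upper row) and the hippocampus (lower row); each point is 1 array, with colour for genotype and shape for replicate. In the hippocampus En2KO replicate 2 lies alone at the lower left and En2KO replicate 1 at the upper right of each panel, and in the cerebellum only *Aqp1* follows *Ttr* closely.

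As a description, all genes measured on all 6 arrays were ordered by their r with *Ttr*. In the hippocampus, 5 of the 9 other members and 9 of the 30 ranked genes of a wider choroid plexus list were among the first 100 of 14798. The first 5 genes outside the 10 were *Tor4a*, *Sulf1*, *Zfp692*, *Spef2* and *Scara5*, with r of 0.987 to 0.996, and *Sulf1*, a heparan sulfate sulfatase, is on the wider list. Their ranges over the arrays differed, from 0.48 log2 units for *Zfp692* to 4.68 for *Scara5*. In the cerebellum 1 member, *Aqp1* at rank 4 of 15270, and 1 gene of the wider list, *Otx2* at rank 33, were among the first 100. The first 5 genes outside the 10 were *Pwwp3b*, *Zfp991*, *Rev3l*, *9630041G16Rik* and *Ddit4*, with r of 0.983 to 0.996.

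A wider list of 34 choroid plexus genes was read in the same way, and 32 were tested in each region. In the cerebellum 3 of the 32 were called higher by the rank product and 0 lower, where 2.38% and 2.65% of all genes were, and the median difference was 0.28. *Otx2*, a homeobox factor that maintains the plexus epithelium, was 7.73, 8.32 and 8.41 in WT and 8.70, 9.25 and 9.21 in En2KO, with P = 0.00515 by permutation. *Tmem72*, a transmembrane protein, was 5.50, 5.98 and 5.99 in WT and 8.28, 7.04 and 6.51 in En2KO, with P = 0.000340 by permutation. *Stra6*, the cellular receptor for retinol-binding protein, was 4.67, 4.96 and 6.66 in WT and 5.64, 6.56 and 7.84 in En2KO, with P = 0.000864 by permutation. For *Otx2* and *Tmem72* the genotypes did not overlap, and for *Stra6* they did. Of the 32 tested, 0 passed limma in either region, with an unadjusted p below 0.05 for 8 in the cerebellum and 0 in the hippocampus, where 9.30% and 19.5% of all genes had one.

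In the hippocampus 3 of the 32 were called lower and 0 higher, where 2.36% and 1.84% of all genes were, with a median difference of -0.13. *Steap1*, a metalloreductase, was 10.03, 10.91 and 11.49 in WT and 6.86 and 10.35 in En2KO replicates 2 and 3. Its spot on En2KO replicate 1 carried an outlier flag, and the rank product filled that value with the mean of the other En2KO arrays, so its P of 4.14e-05 by permutation, 1 of the 3 calls, rests on an imputed value. *F5*, coagulation factor V, was 8.45, 8.78 and 9.02 in WT and 9.27, 4.68 and 7.69 in En2KO (P = 0.000834 by permutation). *Prlr*, the prolactin receptor, was 8.74, 9.44 and 10.57 in WT and 10.08, 6.87 and 8.66 in En2KO (P = 0.00265 by permutation). Over the 30 genes with values on all 6 arrays, En2KO replicate 1 was the highest for 25 and En2KO replicate 2 the lowest for 25. The share of all genes for each of these alone is not given here.

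A list of 26 partners held receptors, carriers and binding proteins of the ligands above, such as the insulin-like growth factor and thyroid hormone receptors, and 25 were tested in each region. In the cerebellum 1 of the 25 was called higher by the rank product, near the 2.38% of all genes, and 0 lower. It was *Rbp4*, the retinol-binding protein that travels with transthyretin, at 11.52, 11.40 and 11.27 in WT and 12.64, 11.76 and 12.36 in En2KO (P = 0.00542 by permutation, adjusted p = 0.301 in limma). In the hippocampus 1 of the 25 was called lower, near the 2.36% of all genes, and 0 higher. *Fgfr1*, the receptor that pairs with *Kl*, was 10.24, 10.10 and 10.28 in WT and 9.44, 8.86 and 8.70 in En2KO, with P = 0.000856 by permutation and an adjusted p of 0.0480 in limma. *Fgfr1* did not follow the order of the choroid plexus genes over the arrays.

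Markers of neighbouring cell types were measured beside them, and their part in the results above was not tested. In the hippocampus the mean deviation from WT over 15 meningeal genes was 0.63, -0.69 and 0.41 on En2KO replicates 1 to 3, with replicate 2 the lowest array for 12 of them and replicate 1 the highest for 5. Over 10 ependymal genes it was 1.00, -0.19 and 0.28, with replicate 1 the highest for 9 and replicate 2 the lowest for 2. The shares of all genes that were highest or lowest on these arrays are not given here. The summed level of the meningeal genes was 15.82 to 16.89 in WT and 16.03 to 16.95 in En2KO on the log2 scale, and that of the ependymal genes 13.52 to 14.41 and 13.61 to 14.80. The same sum over the 10 choroid plexus genes was 15.24 to 16.27 in WT and 13.59 to 17.15 in En2KO. The 9 endothelial genes (-0.45, -0.62 and -0.36) and the 8 thalamic genes (0.88, 0.49 and 0.90) had one sign on all 3 En2KO arrays, unlike the choroid plexus genes. The 7 hippocampal marker genes (-0.52, -0.07 and -0.13) also had one sign. The rank product called 3 of 9 endothelial and 1 of 15 meningeal genes lower, where 2.36% of all genes were, and 1 of 8 thalamic genes higher, where 1.84% were. The 4 blood genes gave 0.48, -0.41 and 0.35.

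In the cerebellum the sum over the 10 choroid plexus genes was 15.002 to 15.18 in WT and 15.53 to 15.77 in En2KO, without overlap. For the meningeal genes it was 16.19 to 17.01 and 16.86 to 17.29, and for the ependymal genes 13.29 to 13.87 and 13.32 to 13.93, both with overlap. The sum over 30 genes of the wider choroid plexus list also overlapped, at 16.61 to 16.78 in WT and 16.76 to 17.02 in En2KO. Their mean deviation from the WT mean did not, at -0.02 to 0.04 in WT and 0.24 to 0.34 in En2KO. The mean over the 7 cerebellar marker genes was lower on all 3 En2KO arrays (-0.36, -0.18 and -0.22 from the WT mean) than on any WT array. Their sum was 18.39 to 18.79 in WT and 18.19 to 18.28 in En2KO, also without overlap. The 7 genes were not uniform, as 2 had the higher mean in En2KO and 3 were highest on the array of En2KO replicate 2. Their part in the choroid plexus result was not tested. The median difference was 0.29 for the 15 meningeal and 0.29 for the 10 ependymal genes, and for the 9 endothelial genes it was -0.19. Of the 15 meningeal genes 0 were called by the rank product in the cerebellum, with 1 at an unadjusted p below 0.05 in limma. Of the 10 ependymal genes 1 was called higher, where 2.38% of all genes were, and 4 had such a p. Among all genes 9.30% had such a p.

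**Figure D4:**
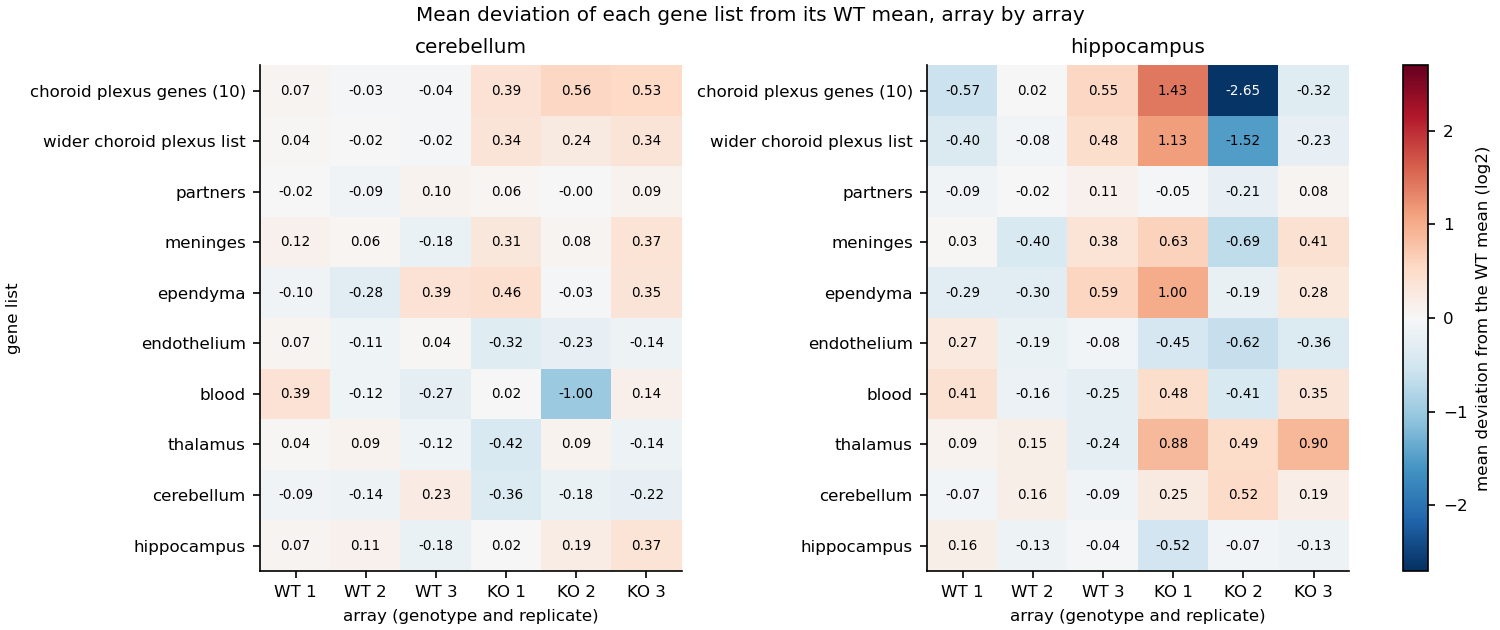
Mean deviation of each gene list from its WT mean (log2) on every array of the cerebellum and the hippocampus; rows are gene lists, columns are arrays by genotype and replicate, and the colour scale is shared. The 10 choroid plexus genes reach 1.43 and -2.65 on hippocampal En2KO replicates 1 and 2, and the wider choroid plexus list 1.13 and -1.52.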

How the data were processed

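Each of the 12 RNA samples gave 1 one-colour Agilent array. The authors deposited the scanner intensity of each spot, corrected for background within the array by Agilent Feature Extraction 10.7.3.1, with flags and gene names. They also deposited a table of log2 values, filtered and quantile normalised per the study's methods, which served as an alternative. Here, neither controls nor outlier-flagged spots were used, log2 intensities were quantile normalised over the 12 arrays, spots of a probe were averaged, and genes were represented by their brightest probe. Testing in a region required it to be well above background on the 3 arrays of either genotype and measured on 2 or more of each. The rank product, the method of the study, was written out in Python 3.11.15 (numpy 2.4.6, pandas 2.3.3) with 9 ratios, 100 permutations and limits on the uncorrected P of 0.01 (cerebellum) and 0.005 (hippocampus), and a missing value was filled with its group mean. Linear models were fitted in R 4.3.3 with limma 3.58.1 and Benjamini-Hochberg adjustment over all genes tested. Figures were drawn with matplotlib 3.10.9. Gene names of the newer annotation, in the cerebellar files, were applied to all arrays, which renamed 1 of the 15 probes in the hippocampal files.

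The 10 genes, the other lists and the tests were chosen with earlier results of these data known. Named beside the 10 genes were *En2*, the genes of the wider plexus and partner lists that a test called, and in each region the 5 genes with the highest r with *Ttr*. Samples were grouped by their labels, and replicate numbers pair arrays by slide, per the file headers. Same-numbered arrays of 2 groups had correlations of their deviations from the group means of -0.23 to 0.45. Which cerebellum and hippocampus came from the same mouse is not given in the sources used here. With 3 arrays per genotype a two-sided permutation test of a single value cannot go below 0.1, and the number of arrays limits the precision. The alternatives were normexp background correction with an offset of 50, the 75th percentile of each array, quantiles within a region, the deposited log2 values, other filters, other handling of probes, the slide as a block, 4 group means over 12 arrays, other rank product limits and leaving out arrays. The procedures were tested on simulated data.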

Additional observations from a re-analysis of the deposited data

How the results depend on the processing

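In the cerebellum the rank product called 3 of the 10 choroid plexus genes under 7 of the other settings of signal, filter and probe and 2 when every probe was tested by itself. It called 1 to 3 when 1 array was left out, and 0 at a percentage of false prediction under 0.05. In the hippocampus, where the number was 3, it was 5 with normexp and with the authors' log2 values, 1 without a filter on dim probes, 0 at that percentage, and 0 to 7 with 1 array left out. With both extreme En2KO arrays left out, an alternative chosen after seeing the data that leaves 1 En2KO array assumed to vary like the WT arrays, it was 0. For the rank product, the shares of all genes called under these alternatives are not given here. In limma 0 of the 10 passed in either region under each alternative run, the replicate block included, where the paired fit on slides gave 0 in both. At an unadjusted p under 0.05 the block took the number from 5 to 3 in the cerebellum and left it at 0 in the hippocampus. The median difference was 0.35 to 0.47 in the cerebellum and -1.59 to 0.74 in the hippocampus with 1 array left out. Single differences kept their sign in 147 of 150 cases in the cerebellum and 144 of 160 in the hippocampus. These totals include settings that left every difference as it was: the group means over all arrays, the replicate block and the other filters. The mean of a gene's probes also changed nothing for genes without a second tested probe. Such cases could not change sign, so the totals overstate how stable the signs were. In the cerebellum the difference of *Kl* was -0.12 as the mean of its probes, and that of *Cldn2* ran from -0.064 to 0.40 with 1 array left out. In the hippocampus *Igfbp2* was 0.13 at the 75th percentile, and with both extreme arrays left out *Sostdc1* was 0.053 and *Igfbp2* 0.0073. With 1 array left out the hippocampal differences ran from -2.32 to 0.11 for *Ttr*, -1.29 to 0.12 for *Kl*, -1.65 to 0.74 for *Folr1*, -1.56 to 0.56 for *Clic6*, -2.08 to 0.75 for *Aqp1*, -0.92 to 0.82 for *Sostdc1*, -1.62 to 0.84 for *Slc4a5*, -2.32 to 0.0044 for *Cldn2*, -0.31 to 0.79 for *Igf2* and -0.79 to 0.78 for *Igfbp2*. The number with a different genotype effect between regions stayed at 0. The number that differed between WT regions was 1, 0 with the authors' log2 values and 0 to 4 with 1 array left out. Apart from the arrays left out, the cause of these changes was not tested.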
